A study of Homo sapiens with 24 samples.

Results

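CRACR2A and the genes of store-operated calcium entry were followed through H1299 vector control cells and 5 clonal cell lines derived from H1299 that stably expressed a Δ133p53 isoform. The 7 genes were found by symbol in the table of counts (CRACR2A, its paralog CRACR2B, the calcium sensors STIM1 and STIM2, and the channel subunits ORAI1, ORAI2 and ORAI3), out of 60563 named genes. All 7 passed the filter on low counts, as did 17990 genes in all. CRACR2A was chosen because its counts in the Δ133p53 cell lines were above those in control, so those values are given as a description and were not tested. The other 6 genes were chosen by name, as the partners and relatives of CRACR2A.

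H1299 cells, which lack p53, come from a human non-small cell carcinoma of the lung. The 6 groups were H1299 cells carrying the vector alone (control), 3 lines with Δ133p53α (Δ133p53α1, Δ133p53α2 and Δ133p53α8) and 2 lines with Δ133p53β (Δ133p53β5 and Δ133p53β10), each with 4 libraries. The Δ133p53 isoforms lack the first part of p53, and the α and β forms differ at the other end of the protein. Each line was 1 clone, so that for a single line the effect of the isoform and of the clone's origin cannot be told apart. All lines were compared with the same 4 control libraries. The replicates were separate libraries, but nothing said whether they came from separate cultures, so p-values measure the spread between libraries. This holds for comparisons of the isoforms too, whose p-values leave out the spread among the 3 Δ133p53α and the 2 Δ133p53β clones.

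Store-operated calcium entry refills the calcium store of the endoplasmic reticulum from outside the cell. When the store empties, STIM proteins in its membrane sense the loss, gather beneath the plasma membrane and open the ORAI channels there. CRACR2A is a calcium-binding EF-hand protein that stabilizes the contact between STIM1 and ORAI1. Its long form carries a Rab GTPase domain as well, binds the dynein motor and is known from T cells and endothelial cells.

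Between 21531599 and 25381731 reads were counted per library. The libraries fell into 2 sets of 12 by a trend with gene length that the cell lines did not explain. In each group, 1 library was in one set and 3 were in the other (the single library had the longer-gene trend in Δ133p53α1, Δ133p53β5 and Δ133p53β10, and the shorter-gene trend in control, Δ133p53α2 and Δ133p53α8). The title of a Δ133p53β library named it as replicate 5 of Δ133p53β10, its genotype label gave the isoform alone, and a column of counts was named for replicate 4 of Δ133p53β5, which no title was. It was used as Δ133p53β5 replicate 4. Levels are given as counts-per-million (CPM) scaled by TMM, and differences were tested in a single edgeR quasi-likelihood fit with Benjamini-Hochberg adjustment over the 17990 genes. Calls required an adjusted p below 0.05 together with a change of at least 1.5 on the log2 scale.

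CRACR2A transcripts were nearly absent from control cells and were present in every Δ133p53 library. CRACR2A (ENSG00000130038) is annotated on chromosome 12 from 3606633 to 3764819 on the minus strand (GRCh38), with 12466 bases of exon. The 4 control libraries held 1, 0, 2 and 0 reads of it. Δ133p53α1 held 47, 25, 22 and 24 reads, and Δ133p53α2 held 109, 131, 136 and 70. These 2 lines did not overlap with each other or with control.

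Δ133p53α8 had 132, 68, 80 and 118 reads of CRACR2A. Δ133p53β5 had 133, 92, 92 and 95, and Δ133p53β10 had 131, 81, 89 and 82. The 12 libraries of these lines overlapped with those of Δ133p53α2, whereas Δ133p53α1 stayed below all of them.

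On the CPM scale, control had a mean CRACR2A level of 0.0284 ± 0.036 (SD, n = 4). The Δ133p53α lines had means of 1.44 ± 0.338 (Δ133p53α1), 5.07 ± 1.52 (Δ133p53α2) and 4.26 ± 1.19 (Δ133p53α8), and the Δ133p53β lines had means of 4.74 ± 0.703 (Δ133p53β5) and 4.36 ± 0.884 (Δ133p53β10). The order of the means was thus Δ133p53α2, Δ133p53β5, Δ133p53β10, Δ133p53α8, Δ133p53α1 and control. The ranges of the first 4 overlapped, from 2.83 to 6.23 CPM. Δ133p53α1 lay between 1.23 and 1.94 CPM, and control between 0 and 0.0751.

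With a floor of 3 reads per library in control (0.121 CPM), Δ133p53α1 had at least 11.9-fold higher CRACR2A, and the increase was at least 42-fold for Δ133p53α2, at least 35.3-fold for Δ133p53α8, at least 39.3-fold for Δ133p53β5 and at least 36.1-fold for Δ133p53β10. These bounds use the mean of each line and cover counting error only. The lowest library of each line was at 10.2-fold (Δ133p53α1), 23.5-fold (Δ133p53α2), 26.2-fold (Δ133p53α8), 34.7-fold (Δ133p53β5) and 28.2-fold (Δ133p53β10) the floor. As background, the share of all tested genes that were called higher than control was 1.05% for Δ133p53α1, 0.967% for Δ133p53α2, 0.967% for Δ133p53α8, 1.38% for Δ133p53β5 and 1.9% for Δ133p53β10. The clone libraries lay above control within each set of libraries. In the longer-gene set, the 9 clone libraries ranged from 1.94 to 5.67 CPM against 0 to 0.0751 in 3 control libraries, and in the shorter-gene set the 11 clone libraries ranged from 1.23 to 6.23 CPM against 0.0384 in 1.

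The level remained low in absolute terms. Per kilobase of annotated exon, CRACR2A reached 0.407 ± 0.122 CPM per kb in Δ133p53α2, its highest line, whereas ORAI1 was 19 ± 10.7 and STIM1 1.49 ± 0.0479 CPM per kb in the same line.

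**Figure D1:**
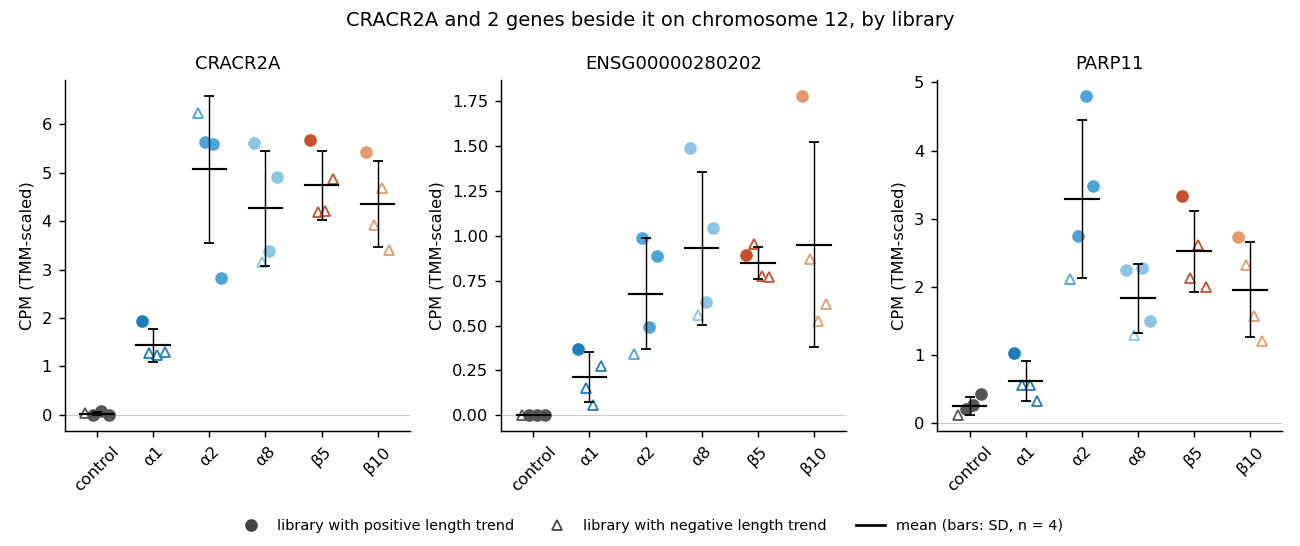
CPM (vertical axes, TMM-scaled) of CRACR2A, ENSG00000280202 and PARP11 in each library of control and the 5 Δ133p53 cell lines, where horizontal lines are means, bars are SDs (n = 4), and filled circles and open triangles are libraries of the longer-gene and shorter-gene sets. CRACR2A lay between 0 and 0.0751 CPM in control, between 1.23 and 1.94 in Δ133p53α1 and between 2.83 and 6.23 in the other lines, and both neighbours were lowest in control and next lowest in Δ133p53α1 on average.

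Among the lines with Δ133p53α, Δ133p53α1 stood apart in its level of CRACR2A. On the log2 scale CRACR2A was 1.81 ± 0.325 (SE) higher in Δ133p53α2 than in Δ133p53α1 (adjusted p = 0.0049 from edgeR), and 1.56 ± 0.323 (SE) higher in Δ133p53α8 than in Δ133p53α1 (adjusted p = 0.0207 from edgeR). All 8 libraries of Δ133p53α2 and Δ133p53α8 exceeded the 4 of Δ133p53α1. Of all tested genes, 0.773% were past an adjusted p of 0.05 in the first comparison and 0.689% in the second. Neither difference was past 0.05 when only the lines compared were fitted (adjusted p = 0.107 and 0.0983 from edgeR). The second was also not past 0.05 without Δ133p53α1 replicate 2, 3 or 4 or Δ133p53α8 replicate 1 or 4 (adjusted p from 0.0788 to 0.0898 from edgeR).

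Δ133p53α8 and Δ133p53α2 differed by a log2 fold change of -0.25 (95% interval -0.89 to 0.4, adjusted p = 0.998 from edgeR), against a background of 0.15% of genes past 0.05. Δ133p53β10 and Δ133p53β5 differed by -0.12 (95% interval -0.77 to 0.53, adjusted p = 1 from edgeR), and 0% of genes were past 0.05 between these lines.

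Between the isoforms, the mean of CRACR2A over the 2 Δ133p53β lines exceeded that over the 3 Δ133p53α lines by 0.53 ± 0.199 (SE) on the log2 scale, a difference that missed 0.05 (adjusted p = 0.143 from edgeR). Its SE and p measure the spread between libraries and not that between clones of an isoform. The study listed CRACR2A as increased in Δ133p53β lines, apart from the genes it listed as increased in all lines. The Δ133p53β values thus had a part in the choice of the gene, and its p-values between the isoforms are a description. Of all tested genes, 5.43% were past 0.05. The difference passed with DESeq2 (adjusted p = 0.045) and with a term for the library set in the edgeR fit (0.61, adjusted p = 0.0305). It rested on Δ133p53α1. Without that line it was -0.04 (standard error 0.224, adjusted p = 0.929 from edgeR), a comparison added after the values were seen.

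Some other genes of the CRACR2A region also had more reads in most Δ133p53 cell lines than in control. Within 1 Mb of the gene, 66 annotated genes were in the table and 21 were tested. ENSG00000280202, a transcript without an assigned type on the same strand inside the last part of CRACR2A (chromosome 12 from 3610307 to 3612003), had 0 reads in all 4 control libraries and 1 to 43 in the clone libraries. It passed the filter on low counts only through the clone libraries, so its difference from control is given as a description. Its mean was 0.213 ± 0.138 CPM in Δ133p53α1 and between 0.678 ± 0.309 (Δ133p53α2) and 0.95 ± 0.572 CPM (Δ133p53β10) in the others, at least 1.77-fold and at least 5.62-fold to 7.88-fold above the floor. Its lowest library in Δ133p53α1 was under the floor, at 0.463-fold. The transcript lies within CRACR2A on the same strand, so these values are not independent of those of CRACR2A.

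PARP11 encodes a mono-ADP-ribosyltransferase and is the next protein-coding gene upstream, on the same strand, from 3791047 to 3873448, 26.2 kb from CRACR2A. Control held 3, 5, 7 and 10 reads of PARP11. Δ133p53α1 held 25, 11, 10 and 6, and overlapped with control. Δ133p53α2 held 37, 64, 117 and 86 reads.

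Δ133p53α8 held 53, 28, 54 and 36 reads of PARP11, Δ133p53β5 held 78, 47, 57 and 39, and Δ133p53β10 held 66, 48, 30 and 29. All 16 libraries of the lines other than Δ133p53α1 were thus above every control library. Control had too few PARP11 reads for the filter on low counts, which the gene passed through the clone libraries. Its differences from control are thus a description. The fit called PARP11 higher in 4 of 5 lines. Log2 fold changes were 3.68 ± 0.417 (SE) for Δ133p53α2, 2.83 ± 0.413 for Δ133p53α8, 3.29 ± 0.415 for Δ133p53β5 and 2.93 ± 0.413 for Δ133p53β10. In Δ133p53α1 the difference was 1.3 (standard error 0.425) and was not called, and with a term for the library set it was 1.66.

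PARP11, too, was lowest in Δ133p53α1 among the Δ133p53 lines. It was higher in Δ133p53α2 than in Δ133p53α1 by 2.38 (standard error 0.386), and in Δ133p53α8 than in Δ133p53α1 by 1.54. Δ133p53α1 also had too few PARP11 reads for the filter on low counts, so both differences are a description. Between the isoforms PARP11 differed by 0.51 (adjusted p = 0.242 from edgeR), by 0.79 with a term for the library set (adjusted p = 0.00524) and by -0.15 without Δ133p53α1 (adjusted p = 0.699). Over 24 libraries the Pearson correlation of log2 CPM with CRACR2A was 0.913 for ENSG00000280202 and 0.877 for PARP11, the 11th and 20th highest of 17989 genes. Among the 20 clone libraries alone these values were 0.765 and 0.837. The libraries share their depth scaling and fall into lines, so the values are descriptions.

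Most other genes around CRACR2A were not called. PRMT8, the next protein-coding gene on the other side (12.7 kb away), had 1 read in all 24 libraries. ENSG00000283138, on the opposite strand over the start of CRACR2A, had 2 reads, and PARP11-AS1 had 1. Of the 21 tested neighbours, 17 were not called in any line. The 21 gave 11 calls in 105 comparisons with control, 5 of ENSG00000280202 and 4 of PARP11. Another was CCND2 (cyclin D2, 505 kb away), higher in Δ133p53β10 by 2.91 (standard error 0.91). ENSG00000280202, PARP11 and CCND2 needed the clone libraries to pass the filter on low counts, so their calls are descriptions. The last was AKAP3 (851 kb away), lower in Δ133p53β5 by a log2 fold change of -1.52 (adjusted p = 0.00297 from edgeR). As background, 0.967% to 1.9% of all tested genes were called higher in the 5 lines. Genes called lower made up 1.41% of all tested genes for Δ133p53α1, 1.67% for Δ133p53α2, 1.41% for Δ133p53α8, 2.94% for Δ133p53β5 and 2.71% for Δ133p53β10.

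CCND2 varied 56.6-fold among the 4 libraries of Δ133p53β10, from 0.125 to 7.05 CPM, and its call was kept in 11 of 24 fits that left out 1 library (adjusted p from 0.0126 to 0.125 from edgeR). It was lost with limma (adjusted p = 0.244), without Δ133p53β10 replicate 2 or 3, and without any 1 of the 4 control libraries, among others. DYRK4, a kinase gene 797 kb away, was past 0.05 in 4 of 5 lines without reaching the fold change, with 1.08 for Δ133p53α1, 1.06 for Δ133p53α2, 1.13 for Δ133p53β5 and 1.42 for Δ133p53β10 (largest adjusted p = 0.0405 from edgeR). Its correlation with CRACR2A was 0.639 over 24 libraries and -0.0696 over the 20 clone libraries, where CCND2 had 0.541 and C12orf4 0.509. TULP3 was past 0.05 in the 2 Δ133p53β lines (-0.66 and -0.59) and TSPAN9 in Δ133p53α2 (-0.79). The remaining 14 tested neighbours, FOXM1, TEAD4 and TIGAR among them, were not past 0.05 in any line.

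**Figure D2:**
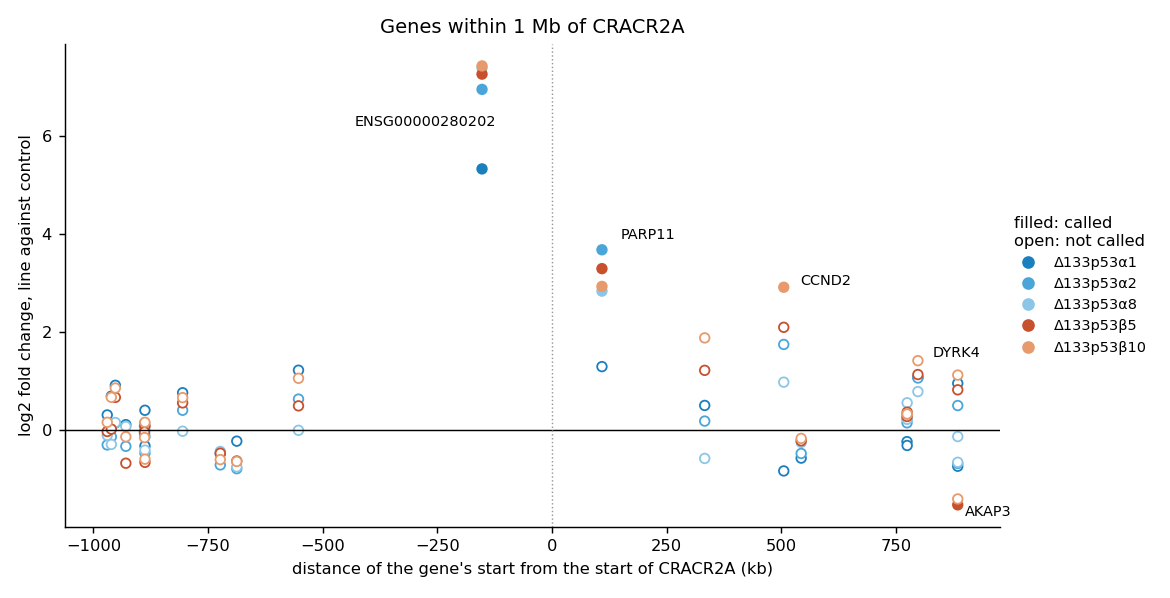
Log2 fold change against control (vertical axis) of the 21 tested genes within 1 Mb of CRACR2A, by the distance in kb of their annotated start from that of CRACR2A (dotted line; CRACR2A itself is not drawn), with 1 colour per Δ133p53 cell line and filled points for called genes. ENSG00000280202, whose fitted values against 0 control reads depend on the prior count, and PARP11 stand out on either side of the line, and the points beyond them lie near 0 apart from CCND2, AKAP3 and a few others.

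The sequences before the start sites of CRACR2A and PARP11 are shown because these genes share a strand and a pattern across the lines. RefSeq (GRCh38.p14) had promoter entries for 5 of the 7 genes and for PARP11. The windows run from 250 bases before the RefSeq start site to the edge of the nearest annotated exon of the gene, on the minus strand, 5′ to 3′, with each CpG in capitals. They lie on chromosome 12, at chr12:3753201-3753359 for CRACR2A (159 bases, 74.8% G or C, 13 CpGs) and at chr12:3873449-3873649 for PARP11 (201 bases, 53.7% G or C, 14 CpGs).
CRACR2A: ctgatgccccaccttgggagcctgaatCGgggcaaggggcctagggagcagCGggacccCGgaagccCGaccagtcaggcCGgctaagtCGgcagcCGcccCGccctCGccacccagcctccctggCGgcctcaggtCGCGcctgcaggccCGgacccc
PARP11: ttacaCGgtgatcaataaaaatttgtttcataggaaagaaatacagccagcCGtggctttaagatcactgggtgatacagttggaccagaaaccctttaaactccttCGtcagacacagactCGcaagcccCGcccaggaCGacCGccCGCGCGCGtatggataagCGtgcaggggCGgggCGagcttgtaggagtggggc

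Over the full 300 bases of each RefSeq entry (50 of them from the start site on), CRACR2A held 32 CpGs, a number reached by 18.9% of 35116 RefSeq promoters, and PARP11 held 21, reached by 39.5%. The GC box GGGCGG, which contains a CpG, occurred 3 times in CRACR2A and 5 times in PARP11 on either strand, and 45% of promoters held at least 1. Neither window held CCAAT (34.6% of promoters), TATAAA (11.5%) or a p53 half-site (6.6%) on either strand, which says only that these letters are not in these windows. GENCODE gives CRACR2A another start farther upstream, at 3764819, and which start was used cannot be read from counts per gene.

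None of the other 6 genes was called against control in any line. In 30 comparisons their log2 fold changes ranged from -1.19 to 0.68. Of all tested genes, 0.967% to 1.9% were called higher and 1.41% to 2.94% lower in a line. At that share few calls would fall in 30 comparisons. An adjusted p under 0.05 alone was reached in 2 of 30 (edgeR; 7 of 30 had an unadjusted p under 0.05, and 4 and 3 passed adjustment with DESeq2 and limma), both of them ORAI2. The share of all tested genes past 0.05 was 4.75% for Δ133p53α1, 5.12% for Δ133p53α2, 4.37% for Δ133p53α8, 9.52% for Δ133p53β5 and 9.91% for Δ133p53β10. With a term for the library set, 7 of 30 passed, and in that fit the share of all tested genes past 0.05 was 6.16% to 15.8% in the 5 lines.

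Among the sensors, STIM1 (chromosome 11 from 3854527 to 4093210) was measured most tightly. Its mean ranged from 15.8 CPM in Δ133p53α8 to 18.3 in Δ133p53α1, with 17.8 ± 3.21 (SD, n = 4) in control. Log2 fold changes against control lay between -0.17 and 0.05 and their 95% intervals between -0.54 and 0.41, so that the lines overlapped with control and a change of 1.5-fold or more was outside these intervals.

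STIM2 (chromosome 4 from 26857601 to 27025381), which responds to smaller losses of stored calcium than STIM1, was highest in control, at 32.1, 37.7, 31 and 41.1 CPM. The clone libraries ranged from 13.6 to 34.5 CPM and overlapped with control in Δ133p53α8, Δ133p53β5 and Δ133p53β10 only. The log2 fold changes were -0.67 for Δ133p53α1, -0.63 for Δ133p53α2, -0.28 for Δ133p53α8, -0.53 for Δ133p53β5 and -0.4 for Δ133p53β10, and none passed (adjusted p from 0.108 to 0.711 from edgeR). The set of libraries moved with STIM2: within groups, its deviations had a correlation of 0.849 with the length trend of the 24 libraries. With the set as a term, Δ133p53α2 alone was past 0.05 (-0.67, adjusted p = 0.00913 from edgeR).

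Among the channel subunits, ORAI2 (chromosome 7 from 102433106 to 102456825) was the one with lower levels in most lines. Control had 95.6, 99.3, 87.9 and 80.4 CPM. Δ133p53β5 had 50.9, 49.9, 49.4 and 72.3, and Δ133p53β10 had 42.1, 51.2, 74.1 and 48.4. Neither Δ133p53β line overlapped with control.

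Likewise, Δ133p53α2 had 68.8, 60.6, 48.6 and 60.4 CPM of ORAI2, and Δ133p53α8 had 56.5, 75.4, 43.6 and 45.2, without overlap with control. Δ133p53α1 had 67.7, 80, 75.2 and 105 CPM and overlapped. ORAI2 decreased in both Δ133p53β lines, with log2 fold changes of -0.71 ± 0.21 (SE) for Δ133p53β5 (adjusted p = 0.0352 from edgeR) and -0.75 ± 0.21 for Δ133p53β10 (adjusted p = 0.0254 from edgeR). In Δ133p53α8 it was -0.72 (adjusted p = 0.0549), in Δ133p53α2 -0.61 (adjusted p = 0.108) and in Δ133p53α1 -0.15 (adjusted p = 0.63, all from edgeR).

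Whether ORAI2 was past 0.05 depended on the fit and on single libraries. With a term for the library set, 4 of 5 lines were past 0.05, with -0.62 for Δ133p53α2, -0.74 for Δ133p53α8, -0.88 for Δ133p53β5 and -0.93 for Δ133p53β10 (largest adjusted p = 0.0187 from edgeR), and Δ133p53α1 was -0.33 (adjusted p = 0.306). Without a filter on low counts, neither Δ133p53β line passed (the larger adjusted p was 0.0994 from edgeR). With only the lines compared in the fit, Δ133p53β10 was not past 0.05 (adjusted p = 0.134). Δ133p53β5 was not past 0.05 without its replicate 1, 2 or 3 or control replicate 1, 2 or 3, nor was Δ133p53β10 without its replicate 1, 2 or 4 or control replicate 2 (adjusted p from 0.0503 to 0.115 from edgeR). ALKBH4 overlaps the end of ORAI2 on the opposite strand, with 8607 reads in all, and the strand setting of the counting was not given in the sources used here.

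ORAI1 (chromosome 12 from 121626509 to 121643218), the channel subunit that CRACR2A binds, had the highest level per kilobase of the 7 genes, from 15.1 ± 4.83 CPM per kb in Δ133p53α8 to 33 ± 10.7 in Δ133p53α1. Control had 76.6, 58.2, 48.3 and 51.9 CPM and overlapped with every line. The log2 fold changes ranged from -0.45 in Δ133p53α8 to 0.68 in Δ133p53α1 (adjusted p from 0.255 to 0.935 from edgeR). Δ133p53β10 alone ran from 40.7 to 156 CPM.

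ORAI3 (chromosome 16 from 30949068 to 30956461) and CRACR2B (chromosome 11 from 826144 to 831991) varied even more within lines. In Δ133p53α8, ORAI3 differed 9.76-fold between its lowest and its highest library (0.68 to 6.63 CPM), and in Δ133p53β10 CRACR2B differed 5.72-fold (9.69 to 55.5 CPM). The 95% intervals of the difference from control were wide, from -2.15 to 1.97 for ORAI3 and from -2.45 to 1.72 for CRACR2B on the log2 scale, and no line passed. With a term for the library set, CRACR2B was past 0.05 in Δ133p53α8 (-1.36, adjusted p = 0.0114) and Δ133p53β5 (-1.16, adjusted p = 0.0277, both from edgeR). CRACR2B overlaps an antisense transcript, ENSG00000255108, with 12926 reads.

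The shorter genes moved with the set of libraries. Within groups, the correlation of log2 CPM with a library's length trend over 24 libraries was -0.873 for CRACR2B, -0.864 for ORAI1, -0.704 for ORAI3 and -0.66 for ORAI2, against -0.0021 for STIM1 and 0.29 for CRACR2A. The part of the library set in the values of these genes was tested by the set term alone.

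**Figure D3:**
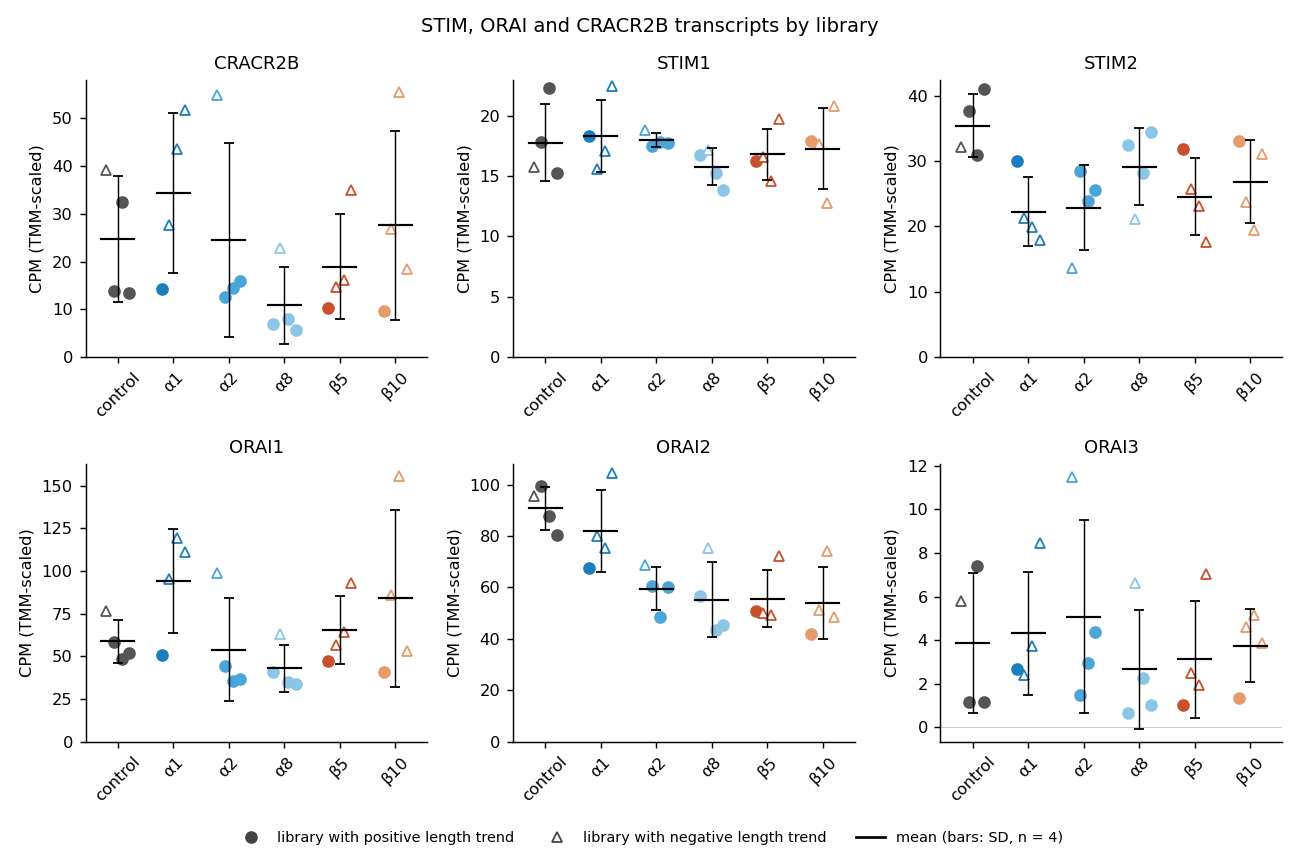
CPM (vertical axes, TMM-scaled) of CRACR2B, STIM1, STIM2, ORAI1, ORAI2 and ORAI3 in each library of control and the 5 Δ133p53 cell lines, where horizontal lines are means, bars are SDs (n = 4), and filled circles and open triangles are libraries of the longer-gene and shorter-gene sets. The 4 control libraries of ORAI2 (80.4 to 99.3 CPM) lie above all libraries of 4 lines, and the triangles lie high for CRACR2B, ORAI1 and ORAI3.

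**Figure D4:**
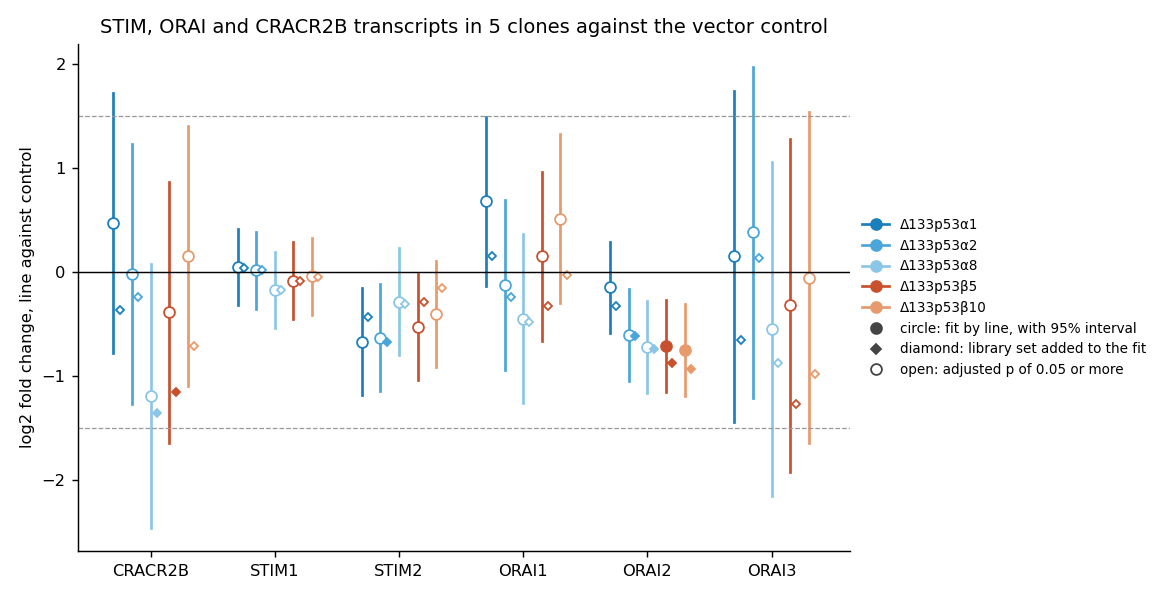
Log2 fold change of 6 genes in each Δ133p53 cell line against control (vertical axis), with circles and 95% intervals from the fit by line (filled at an adjusted p under 0.05), diamonds from the fit with a term for the library set and dashed lines at the fold change needed for a call. STIM1 lies close to 0 in all lines, ORAI2 is filled in both Δ133p53β lines, and no circle or diamond reaches a dashed line.

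Between the isoforms, none of the 7 genes was past 0.05 with edgeR (1 had an unadjusted p under 0.05, CRACR2A). DESeq2 and the edgeR fit with the set of libraries each passed 1, CRACR2A, and limma passed 0. For CRACR2A these results are a description. For the other 6 genes, the log2 fold changes of Δ133p53β against Δ133p53α lay between -0.24 (ORAI2) and 0.3 (ORAI1), with the smallest adjusted p at 0.379 (ORAI2).

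The wider pathway was read in 9 lists of 87 genes, of which 71 were tested. They gave 6 calls in 355 comparisons with control, 3 higher and 3 lower, a share no larger than the background (0.967% to 1.9% of all tested genes were called higher and 1.41% to 2.94% lower). That count was 13 without Δ133p53α1 replicate 1 or Δ133p53β10 replicate 1, 11 without Δ133p53α2 replicate 1 or Δ133p53β5 replicate 4, and 10 without Δ133p53α2 replicate 2, Δ133p53β10 replicate 3 or control replicate 4. The median log2 fold change of the 71 genes lay between -0.01 and 0.11 in the 5 lines, beside -0.05 to 0.03 for all tested genes. ATP2C2, with 2 of the 6 calls, needed the clone libraries to pass the filter on low counts.

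Calcium pumps held the gene that moved in most lines. ATP2C2, which loads the Golgi with calcium and manganese, was above control in 5 of 5 lines. The control libraries alone were too low for the filter on low counts, which ATP2C2 needed the clone libraries to pass. Its differences from control are thus a description. Control had a mean of 0.43 ± 0.0548 CPM (SD, n = 4). The means were 1.17 ± 0.32 CPM for Δ133p53α1, 1.84 ± 0.336 for Δ133p53α2, 1.01 ± 0.293 for Δ133p53α8, 1.31 ± 0.0759 for Δ133p53β5 and 1.22 ± 0.191 for Δ133p53β10. All 20 clone libraries were above control, in which the highest had 0.488 CPM and the lowest clone library 0.717. Log2 fold changes were 1.43, 2.08, 1.22, 1.59 and 1.5 in that order, which the fit called in Δ133p53α2 and Δ133p53β5. ATP2C2 in Δ133p53α8 was not past 0.05 with only the lines compared in the fit (adjusted p = 0.0979). The other 6 tested pumps were not past 0.05 in any line.

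Among the 10 tested phospholipases C, which make the messenger that empties the store, PLCH1 decreased in Δ133p53α1 by -1.64 and in Δ133p53β5 by -1.71, and was past 0.05 without the fold change in Δ133p53β10 (-1.47; largest adjusted p = 0.0183 from edgeR). In Δ133p53α1, PLCH1 was not past 0.05 without Δ133p53α1 replicate 2, 3 or 4, without control replicate 2 (adjusted p up to 0.0727) or with only the lines compared in the fit (adjusted p = 0.0848). With a term for the library set, PLCH1 missed the fold change in both lines, at -1.14 and -1.18. PLCG2 increased in Δ133p53α2 by 1.52 (adjusted p = 0.000955) and was past 0.05 in Δ133p53α8 (0.99, adjusted p = 0.0345, both from edgeR). PLCG1, which acts below growth factor receptors, was past 0.05 in Δ133p53β5 (-0.82) and Δ133p53β10 (-0.89), with a largest adjusted p of 0.0329 from edgeR.

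Of 16 tested regulators of store-operated entry, 1 was called. ANO8, a tether between the endoplasmic reticulum and the plasma membrane, decreased in Δ133p53α8 by -1.51 (adjusted p = 0.00427 from edgeR) and was past 0.05 in Δ133p53α2 (-1.32), Δ133p53β5 (-1.48) and Δ133p53β10 (-1), with a largest adjusted p of 0.0391. The call only just reached the fold change needed. Control was uneven, at 6.2 ± 3.32 CPM (SD, n = 4) with a range of 4.26 to 11.2, against 1.43 to 2.88 CPM in Δ133p53α8. ESYT2, a tether at the same contacts, was past 0.05 in Δ133p53α1, Δ133p53β5 and Δ133p53β10 (from -1.21 to -1.19). GRAMD2A, another protein of these contacts, was past 0.05 in Δ133p53β5 (-1.48) and Δ133p53β10 (-1.4). How far ANO8, ESYT2 and GRAMD2A depended on single libraries was not tested gene by gene.

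No gene was past 0.05 in any line among 4 tested release channels of the endoplasmic reticulum, 3 TRPC channels and 9 genes of mitochondrial calcium uptake. Of 12 genes of calcineurin and NFAT, which carry the calcium signal to the nucleus, PPP3CC was past 0.05 in Δ133p53β5 (0.72, adjusted p = 0.008 from edgeR). Of 10 genes of the dynein motor, DYNC1LI1 was past 0.05 in Δ133p53β5 (0.7) and Δ133p53β10 (0.64), and DCTN1 in Δ133p53β10 (-0.56), with a largest adjusted p of 0.0415. RAB44 and RASEF, the other large Rab GTPases with EF hands, did not pass the filter. Between the isoforms, 4 of the 71 genes were past 0.05, all lower in Δ133p53β: DCTN1, DYNC1H1, NFATC4 and GRAMD2A (from -1.24 to -0.51), beside 5.43% of all tested genes.

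**Figure D5:**
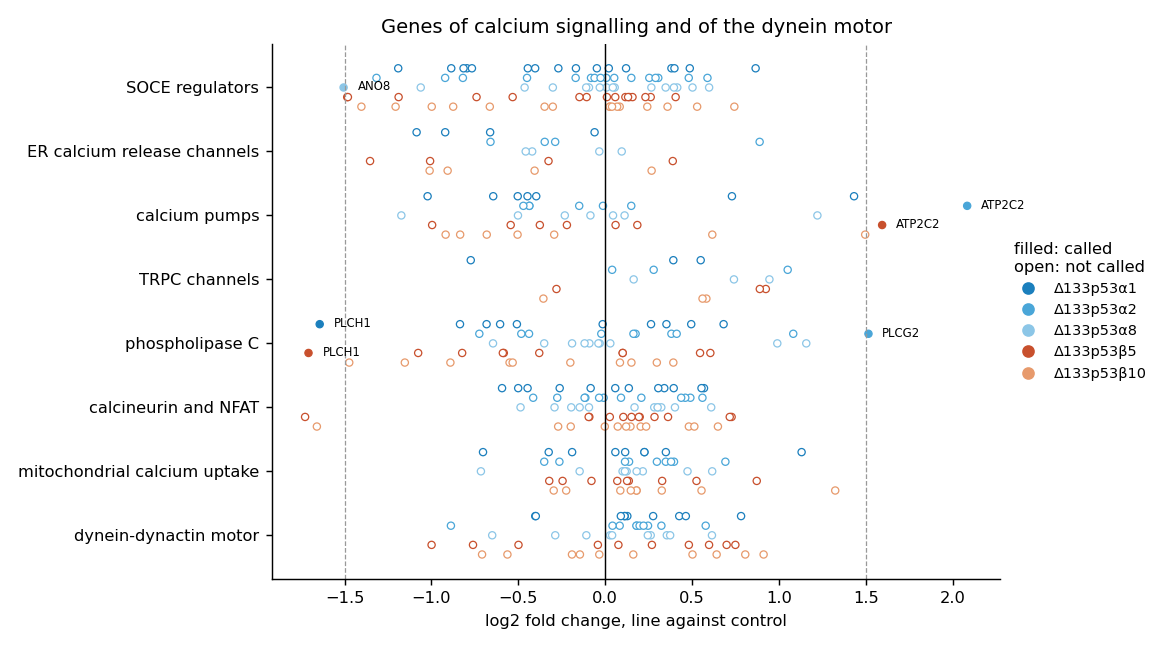
Log2 fold change against control (horizontal axis) of the tested genes of 8 lists (rows), with 1 colour per Δ133p53 cell line, filled and named points for called genes and dashed lines at the fold change needed for a call. Most points lie between the dashed lines, and the called points are ATP2C2 and PLCG2 on the higher side and PLCH1 and ANO8 on the lower side.

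The genes closest to CRACR2A in pattern had other functions. They were the highest of 17989 genes over libraries that include control, on which CRACR2A was chosen. Their ranks are thus a description. Over 24 libraries the highest Pearson correlations of log2 CPM were those of ANXA3 (0.96), SPECC1 (0.957), ZNF22 (0.956), ERC2 (0.946) and CTPS2 (0.936). Each lies on another chromosome. Each was lowest in control and, like CRACR2A, lower on average in Δ133p53α1 than in Δ133p53α2 and Δ133p53α8. ANXA3, for example, had 0.423 ± 0.0677 CPM (SD, n = 4) in control, 9.07 ± 2.42 in Δ133p53α1, 32.5 ± 7.8 in Δ133p53α2 and 18.2 ± 3.79 in Δ133p53β5.

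The lowest correlations with CRACR2A were those of GALNT14 (-0.975), BMP7 (-0.968), ENSG00000232111 (-0.94), RTL6 (-0.933) and LDHAL6FP (-0.933). GALNT14 had 6.41 ± 1.13 CPM in control, 0.525 ± 0.291 in Δ133p53α1 and at most 0.0909 in the libraries of the other lines. Among the 6 other genes of store-operated entry, ORAI2 had the lowest correlation with CRACR2A (-0.706, and -0.606 in the 20 clone libraries alone).

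The cell types in which CRACR2A is best known left little trace. Of 7 T cell markers, 5 had 0 reads in every control library and 5 in every clone library, among them CD3E, CD3G, CD2 and PTPRC in both (CD247 held most of the reads that were found), and the list summed to at most 0.127 CPM in control and 0.474 in the clones. The 6 endothelial markers summed to between 0.806 and 1.02 CPM in control and 0.484 and 2.39 in the clones. Of 9 lung epithelium markers, KRT8 and KRT18 made up nearly all of the sum (875 to 1652 CPM in control and 1861 to 7735 in the clones), whereas NKX2-1, SFTPB, SFTPC, NAPSA, EPCAM and CDH1 averaged under 1 CPM in every line. The 4 mesenchymal markers (VIM, CDH2, FN1 and ZEB1) summed to between 2791 and 5001 CPM in control and 1812 and 5207 in the clones. VIM alone was at 3687 ± 1089 CPM (SD, n = 4) in control. The part of the keratin difference in the results above was not tested.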

How the data were processed

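Strand-specific mRNA libraries were sequenced on a DNBSEQ platform. According to the methods of the study, the authors used Cutadapt for trimming, HISAT2 for alignment to GRCh38 and featureCounts for counting over exons, summarized by gene. The deposited values were raw counts per gene for 24 libraries. The handling of strand and of multi-mapped reads was not given in the sources used here. The row without a gene name (0 counts) was left out.

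Counts were filtered by group (filterByExpr), scaled by TMM and tested with edgeR's quasi-likelihood test in 1 fit of 6 groups (18 residual degrees of freedom), with Benjamini-Hochberg adjustment over 17990 genes. Intervals of log2 fold changes were 95% t intervals. edgeR 4.0.16, limma 3.58.1 and DESeq2 1.42.0 were used in R 4.3.3. The edgeR test was checked on simulated counts that had no trend with gene length, so the check does not cover the sets of libraries. Totals of 21531599 to 25381731 counts set the precision, and bounds on counts cover counting error only.

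The genes, lists and tests were chosen with earlier results of these data known. Named were the 7 genes, their tested neighbours within 1 Mb, pathway genes called in at least 2 lines and the 5 genes most and least like CRACR2A in log2 CPM (prior count 2). Other pathway genes past 0.05 and untested neighbours were named after their values were seen. Positions came from GENCODE on GRCh38. Alternatives were another filter, scaling or test, the replicate number or the set of libraries as a term, fitting only the lines compared, a narrower window of 500 kb, and leaving out each library. The level of the transcript encoded by the expression constructs is not reported here.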

Additional observations from a re-analysis of the deposited data

Results flagged for a closer look

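In 71 groups of 4 libraries, 5 held a library far from the other 3 by Dixon's test, which flags about 1 group in 20 by chance. CRACR2A was 1.94 CPM in Δ133p53α1 replicate 1 against 1.23 to 1.31 in the others. CRACR2B was 54.9 CPM in Δ133p53α2 replicate 1 against 12.6 to 16 and 22.9 CPM in Δ133p53α8 replicate 2 against 5.62 to 8.02. ORAI1 was 99 CPM in Δ133p53α2 replicate 1 against 35.4 to 44.6. ORAI2 was 72.3 CPM in Δ133p53β5 replicate 4, the library with conflicting labels, against 49.4 to 50.9. In 4 of the 5, that library was the only one of its group in its set of libraries by length trend.

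Several differences between lines or isoforms were past an adjusted p of 0.05 with edgeR. CRACR2A differed by a log2 fold change of 1.81 between Δ133p53α2 and Δ133p53α1 and by 1.56 between Δ133p53α8 and Δ133p53α1, and PARP11 by 2.38 between Δ133p53α2 and Δ133p53α1. The PARP11 difference is a description, as Δ133p53α1 had too few reads of it for the filter on low counts. For CCND2 the Δ133p53β lines exceeded the Δ133p53α lines by 1.87. AKAP3 was lower in Δ133p53β, with a log2 fold change of -0.77.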

How the results depend on the processing

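In all, 36 alternatives were run, 24 of which left out 1 library, but each difference had values in only 7 to 10 of the other 12. No difference past 0.05 reversed where it had a value, and 13 of 27 stayed past 0.05 in every alternative that gave them one. Most of these 13 were differences from control of ENSG00000280202, PARP11 and ATP2C2. Those genes passed the filter on low counts only through the clone libraries, so their part of the count is a description. The others were DYRK4 in Δ133p53β10 and PLCH1 in Δ133p53β5. Of 49 differences not past 0.05, 20 changed sign and 13 passed somewhere. None of the 6 genes other than CRACR2A was called against control (2 without the fold threshold). By adjusted p alone the count of 2 became 0 without a filter, 4 with DESeq2, 7 with a term for the set of libraries, 1 with only the lines compared, and 0 to 3 when a library was left out. The 6 pathway calls became 10 at a mean of at least 1 CPM, 10 with DESeq2, 12 with Δ133p53β5 replicate 4 counted in Δ133p53β10, 26 without the fold threshold and 5 to 13 when a library was left out. Of the 11 neighbour calls, 5 were of ENSG00000280202 and 4 of PARP11, which are descriptions. The count of 11 became 5 at a mean of at least 1 CPM, a filter that removed ENSG00000280202. It became 19 without the fold threshold, 9 within 500 kb and 9 to 13 when a library was left out. Between the isoforms, 1 gene, CRACR2A, passed with DESeq2 (0.53) and with the set of libraries (0.61), and 0 in any leave-one-out fit (CRACR2A 0.46 to 0.59). These CRACR2A results are a description. Without Δ133p53α1 its difference was -0.035. CRACR2A between Δ133p53α2 and Δ133p53α1 was 1.8 with only these lines fitted and 1.7 to 2.01 when a library was left out, and between Δ133p53α8 and Δ133p53α1 it was 1.56 and 1.4 to 1.75. The cause was not tested where none is given.

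Replicate numbers did not pair the libraries: of 60 pairs with the same number, 22 had a correlation of deviations over 0.1 (range -0.886 to 0.893). With the replicate block, 1 of the 6 genes' comparisons was past 0.05, pathway calls were 8 and neighbour calls 10, and CRACR2A differed by 0.54 between isoforms (adjusted p = 0.139 from edgeR), by 1.81 between Δ133p53α2 and Δ133p53α1 and by 1.57 between Δ133p53α8 and Δ133p53α1.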
